A study of Mus musculus with 5 samples.

Results

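Heat shock proteins and endoplasmic reticulum (ER) chaperones are the proteins that fold other proteins, in the cytosol, in mitochondria and along the secretory pathway. Their genes were taken as all symbols in the array's gene annotation that begin with Hsp followed by a digit or by a, b, d, e or h, with Dnaj, Pdia, Cct (subunits 2 to 8), Herpud, Calr, P4h, Sel1l, Fkbp, Edem or Derl, together with Canx and the cyclophilins Ppia to Ppih. The annotation held 112 such symbols on 141 array features. A feature had to hold a value on 4 or all 5 arrays, and 105 features of 86 genes did, out of 10081 genes and unnamed features in all. Of the 86 genes, 77 had values in all 5 mice and 9 in 4 mice.

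The arrays compared lungs of 129svJ mice, an inbred strain, after bleomycin, an antitumour antibiotic that breaks DNA and is used to injure the lung, with lungs of control mice of the same strain. Each of the 5 arrays carried amplified RNA of 1 bleomycin-treated mouse in the first channel and a pool of amplified RNA from control mice in the second. The bleomycin-treated mice, numbered 1 to 5, form a single group, and the pool is the common reference of every array. Age, sex, dose, time after treatment, the size of the pool and the dyes are not stated in the labels.

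Cells meet misfolded protein with separate programmes in separate compartments. In the cytosol, heat shock factors bind heat shock elements and induce HSP70, HSP90, HSP110 and J-domain proteins, which work as a relay on unfolded clients. In the ER, the sensors PERK, IRE1 and ATF6 form the unfolded protein response, which induces BiP, GRP94, disulfide isomerases and the machinery that returns misfolded proteins to the cytosol for degradation. Lung cells that secrete surfactant, antibodies or collagen rely on the ER chaperones, and collagen needs in addition prolyl hydroxylases, HSP47 and FK506-binding proteins.

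The deposited value is a log ratio per feature and array, taken as log2, although no source names the base. No source settles the direction of the ratio either. The titles name the bleomycin mouse before the pool, but the labels name neither the dyes nor the direction. Values are therefore given as lying above or below 0, without saying which of mouse and pool held more RNA. Folds are powers of 2 on that reading and would be larger for natural logs, and without swapped dyes a dye effect does not cancel. Each array was centred on its own median, and the arrays shared an orientation, since any pair of them correlated across genes with Pearson's r of 0.732 to 0.857. In lung tissue, fewer cells of a type and less RNA per cell cannot be told apart, and a ratio gives no level, so the tissue could not be checked by the level of its markers.

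The 86 genes lay above 0 more often than below it. By limma against 0, with Benjamini-Hochberg adjustment over all 10081 genes and features, 54 of the 86 genes passed at an adjusted p under 0.05, which is 62.8% against 49.6% of all features tested. Above 0 there were 40, or 46.5% against 25.8% of all tested. Below 0 there were 14, or 16.3% against 23.9%. Differences of at least 2-fold were seen for 11 of the genes that passed, 10 above 0 and 1 below, where 5.59% of all tested reached that size, 3.24% above 0 and 2.35% below. When the test itself asked for more than 1.2-fold (limma's treat), 27 of the 86 passed, against 18.3% of all tested. All measured mice lay on 1 side of 0 for 55 of the 86 genes, or 64.0%, near the 57.3% of all tested. The median over the 86 genes was 0.14, and it was 0.17, 0.12, 0.14, 0.14 and 0.15 in mice 1 to 5, against −0.0066 over all features tested.

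Because the pool is a single sample, how control mice vary does not enter this test. Treating the pool as a lone control animal, assumed to vary as much as the treated ones, left 12 of the 86 genes past the threshold, against 5.09% of all features tested. These were Hsph1, Herpud1, Hsp90aa1, Pdia3, Dnajb6, Hspa1a, Cct7, Dnajc7, Fkbp7 and P4ha2 above 0, and Fkbp1b and Dnajc19 below 0.

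**Figure D1:**
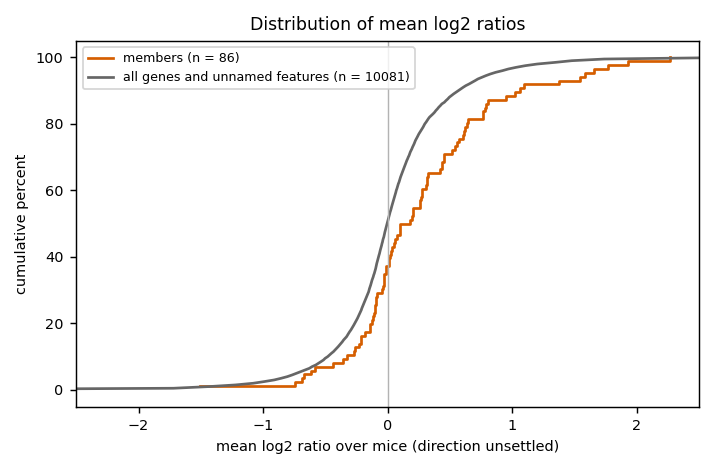
Cumulative percent of genes (vertical axis) by mean log2 ratio over the mice (horizontal axis), for the 86 protein folding genes in orange and all 10081 genes and unnamed features in grey. The orange curve lies to the right of the grey one over most of the range above 0, with medians of 0.14 and −0.0066.

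Of the HSP70 family, the ATP-driven chaperones that grip short stretches of unfolded protein, 10 genes were measured and 9 passed, 5 above 0 and 4 below. Counts by family and by marker list, here and below, stand beside the 49.6% of all features tested that passed, 25.8% above 0 and 23.9% below. Hspa1a, the classical heat-inducible HSP70, stood at 1.56, 1.44, 1.43, 1.25 and 1.17 in mice 1 to 5. All mice were close together, and the mean was 1.37 ± 0.16 (SD, n = 5 mice; 2.59-fold, adjusted p = 2.8e-05). Hspa8, the constitutive HSC70, stood at 0.70, 0.45, 0.56, 0.60 and 0.86 in mice 1 to 5, again above 0 in every mouse (0.63 ± 0.16, adjusted p = 0.000441). Hspa5 encodes BiP, the HSP70 of the ER and the standard marker of ER stress. Its values were 0.49, 0.30, −0.023, 0.39 and 0.15 in mice 1 to 5, with 4 mice above 0 and mouse 3 at about 0. Its mean of 0.26 ± 0.20 passed (adjusted p = 0.0327) and missed the threshold without mouse 1, 2, 4 or 5, at adjusted p from 0.0538 to 0.0947.

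The related Hspa4 and Hspa4l, both HSP110-type exchange factors that reload HSP70 with ATP, lay on opposite sides. Hspa4 stood at −0.47, −0.52, −0.85, −0.83 and −0.68 in mice 1 to 5 (−0.67 ± 0.17, adjusted p = 0.000449), below 0 in all mice. Hspa4l stood at 0.86, 0.33, 0.69, 0.83 and 1.09 in mice 1 to 5 (0.76 ± 0.28, adjusted p = 0.00118), above 0 in all mice. Hspa1l, a relative known mainly from testis, averaged −0.58 ± 0.27, the ER and microsomal Hspa13 −0.44 ± 0.16 and mitochondrial mortalin, Hspa9, −0.32 ± 0.10, and all 3 passed below 0. Hspa12b, known from endothelium, passed at 0.27 ± 0.18 and lost the call without mouse 2, 4 or 5 (adjusted p from 0.0637 to 0.0706). All 6 measured endothelial markers passed above 0 as well, with list medians of 1.34, 0.94, 0.89, 0.76 and 1.46 in mice 1 to 5, and their part in the ratio of Hspa12b was not tested. Hspa12a, its relative, averaged −0.22 ± 0.22 and did not pass (adjusted p = 0.0753).

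Hspa1a was spotted on the array as 17 features of 1 transcript, 13 of which were kept. The annotation does not say what these features are or where they lie on the transcript, so what their differences mean is unknown. Every one of the 13 passed above 0 when features were fitted singly. Their means over the mice nevertheless spread from 0.59 to 1.93, with a median of 1.45. Within an array the SD between these features was 0.48, 0.43, 0.34, 0.51 and 0.55 for mice 1 to 5, which exceeds the SD of 0.16 between mice for the averaged gene. The side of 0 was thus shared by all features, while the size of the ratio depended on the feature. The files do not say whether these features tell Hspa1a from its near-identical neighbour Hspa1b, whose own feature had no value on any array.

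**Figure D2:**
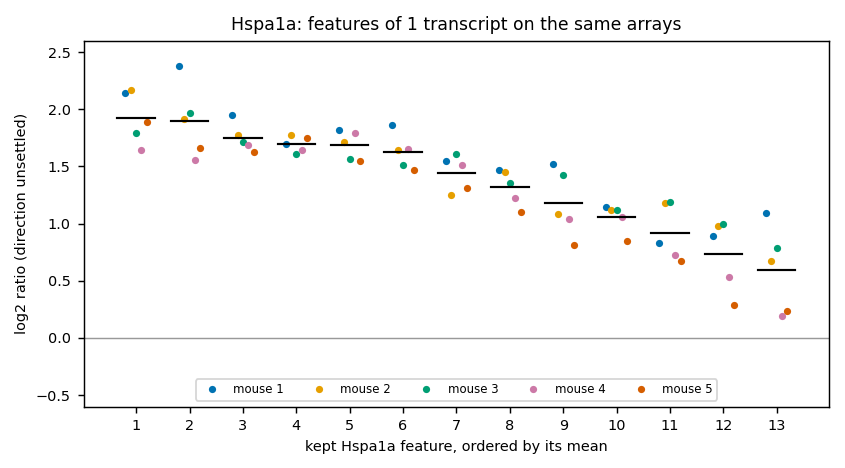
Log2 ratio (vertical axis) of each of the 13 kept Hspa1a features (horizontal axis, ordered by mean), with 1 coloured point per mouse and a black bar at the mean. All points lie above 0, and the feature means run from 1.93 at the left to 0.59 at the right.

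Hsp90aa1 and Hsph1 held the largest differences of the 86 genes, together with Herpud1 of the ER. Hsp90aa1, the stress-inducible cytosolic HSP90 that matures kinases and steroid receptors, stood at 1.79, 1.43, 1.25, 2.16 and 2.19 in mice 1 to 5. Its mean was 1.76 ± 0.42 (3.40-fold, adjusted p = 0.000156), with mouse 3 the lowest and mice 4 and 5 the highest. Hsp90b1, which encodes GRP94, the HSP90 of the ER, stood at 0.61, 0.66, 0.47, 1.10 and 1.12 in mice 1 to 5 (0.79 ± 0.30, adjusted p = 0.00126), with mouse 3 again lowest. Hsph1, the HSP110 that exchanges nucleotide on HSP70 and helps to dissolve aggregates, had the mean farthest from 0 of all 86 genes. Its values were 2.75, 2.00, 1.91 and 2.39 in mice 1, 2, 4 and 5, and its mean was 2.26 ± 0.38 over 4 mice (4.80-fold, adjusted p = 0.000123). Hspbp1, which encodes an HSP70-binding protein, averaged −0.035 ± 0.098 and did not pass.

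The small heat shock proteins, which hold unfolded proteins in a soluble state and are abundant in muscle, had 4 measured genes. Of these 1 passed, Hspb2, below 0. Hspb2, a partner of the myotonic dystrophy kinase, stood at −1.10, −0.69, −0.67, −0.56 and −0.41 in mice 1 to 5 (−0.69 ± 0.26, adjusted p = 0.00136). The cardiac and skeletal muscle chaperone Hspb7 stood at −0.41, 0.058, 0.26, 0.29 and 0.10 in mice 1 to 5, below 0 in mouse 1 and above 0 in the other mice, and did not pass (adjusted p = 0.663). Hspb8, which works with BAG3 in autophagy, averaged 0.097 ± 0.068 over 4 mice. Hspb11, also known as the ciliary transport protein IFT25, averaged −0.14 ± 0.14. Skeletal muscle markers differed widely between these arrays. Of 14 measured skeletal muscle markers, 10 passed below 0 and none above, and their median was −3.35, −2.33, −0.17, −0.33 and −2.05 in mice 1 to 5. Of 7 measured cardiac muscle markers, by contrast, 4 passed above 0 and 1 below, and their median was 1.74, 0.58, 0.76, 0.68 and 0.94 in mice 1 to 5. The single skeletal markers spanned −5.75 to 0.26 in mouse 1 and −1.38 to 1.23 in mouse 3. The skeletal median, Hspb2 and Hspb7 were each lowest in mouse 1, and the cardiac median was highest there. Mouse 1 was the lowest for 21 of the 86 genes. Hspb2 was highest in mouse 5 and the skeletal median in mouse 3. The part of muscle RNA in the ratios of the small heat shock proteins was not tested.

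The mitochondrial chaperonin is a barrel of HSP60, encoded by Hspd1, with a lid of HSP10, encoded by Hspe1, and these genes share a bidirectional promoter. Hspd1 stood at −0.0060, 0.090, 0.46, −0.021 and −0.41 in mice 1 to 5, on both sides of 0, and did not pass (0.023 ± 0.31, adjusted p = 0.879). Hspe1 stood at −0.19, −0.30, −0.42, −0.12 and −0.77 in mice 1 to 5, below 0 in every mouse (−0.36 ± 0.26, adjusted p = 0.0192, and 0.0596 without mouse 3). Mouse 5 was the lowest for both.

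CCT is the cytosolic chaperonin, a double ring built from equal numbers of its subunits that folds actin and tubulin. All 8 symbols on the array were measured, and 5 passed, each above 0. The subunits did not share a common ratio. Cct5 stood at 1.53, 1.52, 1.10, 1.84 and 2.27 in mice 1 to 5 (1.65 ± 0.43, 3.14-fold, adjusted p = 0.000221). Cct7 stood at 1.31, 1.16, 1.05, 1.06 and 0.88 in mice 1 to 5 (1.09 ± 0.16, adjusted p = 5.43e-05). Cct2 stood at 0.93, 0.92, 0.34, 1.15 and 1.39 in mice 1 to 5 (0.95 ± 0.39, adjusted p = 0.00153). These 3 subunits lay far above the others in nearly every mouse, and Cct2 in mouse 3 alone came close to their level. Cct4 averaged 0.31 ± 0.12 and Cct6a 0.18 ± 0.089, and the call of Cct6a was lost without mouse 1, 2, 3 or 5 (adjusted p from 0.0602 to 0.083). Cct8 averaged 0.097 ± 0.060, Cct3 0.018 ± 0.30 over 4 mice and Cct6b, a subunit form known from testis, −0.13 ± 0.12, and none of the 3 passed.

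Cct5, Cct2, Hsp90aa1, Hsp90b1 and Dnajc7 were each lowest in mouse 3 and highest in mouse 5, an order picked out after the values were seen. With Dnajb9 and Dnajc14 it held for 7 of the 77 genes measured in all mice, or 9.09%, and for 5.62% of all features measured in all mice, so it is not a result about these genes.

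**Figure D3:**
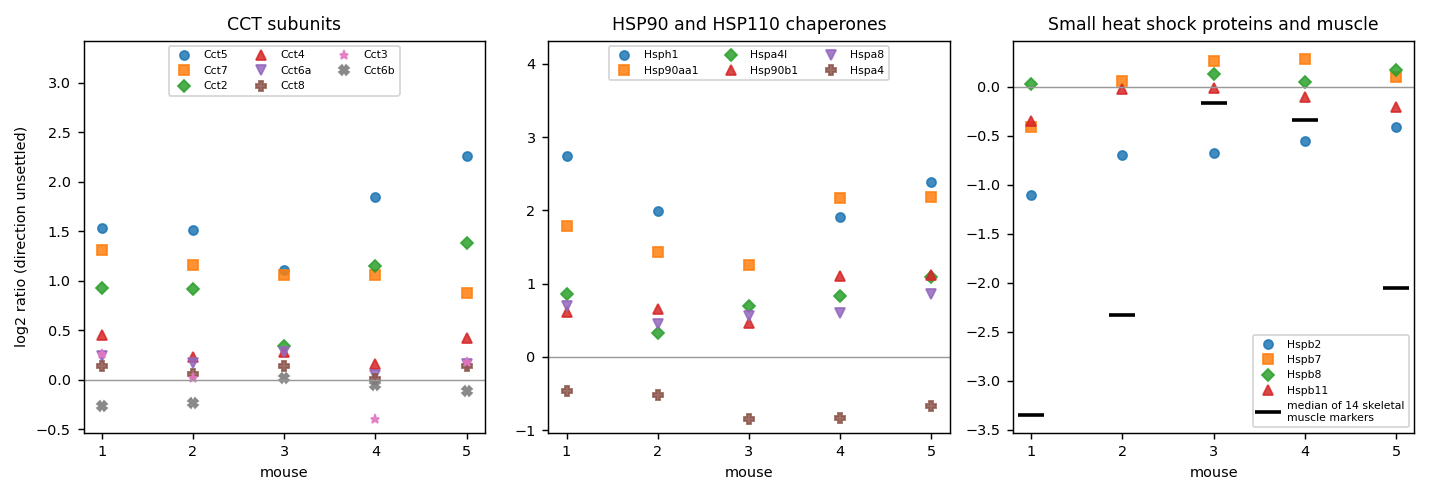
Log2 ratios (vertical axes) in each mouse (horizontal axes) of CCT subunits, of HSP90 and HSP110-type chaperones with Hspa8, and of small heat shock proteins beside the median of 14 skeletal muscle markers (black bars). Cct5, Cct7 and Cct2 lie apart from the other subunits, Hspa4 lies below 0 while Hspa4l lies above it, and the muscle median is near 0 only in mice 3 and 4.

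J-domain proteins deliver clients to HSP70 and switch on its ATPase. Of 26 measured genes 13 passed, a share near the 49.6% of all features tested, with 10 above 0 and 3 below and a median of 0.042. Dnajb6, which keeps aggregation-prone proteins soluble, stood at 1.82, 1.53, 1.47 and 1.35 in mice 1, 3, 4 and 5 (1.54 ± 0.20, 2.92-fold, adjusted p = 8.22e-05). Dnajc7, which links HSP70 to HSP90, stood at 1.08, 0.89, 0.82, 1.25 and 1.27 in mice 1 to 5 (1.06 ± 0.20, adjusted p = 0.000105). These were the only J-domain genes past 2-fold. Dnajb4, a type II J-domain protein of the cytosol, stood at 0.99, 0.70, 0.69, 0.47 and 0.37 in mice 1 to 5 (0.64 ± 0.24, adjusted p = 0.00138), but its 2 features disagreed. They averaged 1.00 ± 0.31, which passed when fitted singly, and 0.12 ± 0.033, which did not (adjusted p = 0.128). Mouse 1 had a value on the farther feature only, so its place as highest is not comparable, and on that feature it stood at 0.989, below mice 2 and 3 at 1.338 and 1.255. The other cytosolic members above 0 included the farnesylated HSP70 partner Dnaja1, at 0.61 ± 0.31 over 4 mice, Dnaja4 at 0.51 ± 0.32 and Dnajb5 at 0.43 ± 0.18. Dnajb2, known from neurons, averaged 0.57 ± 0.38 over 4 mice and lost its call without mouse 4 (adjusted p = 0.0702).

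Below 0 the farthest was Dnajc19, a protein of the mitochondrial import motor, at −0.70, −0.53, −0.57, −0.55 and −0.74 in mice 1 to 5. All mice lay close together, and the mean was −0.62 ± 0.095 (adjusted p = 0.000191). Dnajb3, known from testis, averaged −0.28 ± 0.15. The mitochondrial Dnaja3 stood at −0.24, −0.34, −0.13, −0.22 and −0.37 in mice 1 to 5 (−0.26 ± 0.099) and passed, but its 2 features passed on opposite sides, at 0.23 ± 0.12 and −0.75 ± 0.10, so the average stands for neither feature. Dnajc12 averaged 0.42 ± 0.32 with mouse 1 at −0.12 and the other mice between 0.455 and 0.705. Dnaja2 averaged 0.21 ± 0.12, but its 2 features disagreed. They averaged 0.38 ± 0.17, which passed when fitted singly, and −0.046 ± 0.052, which did not (adjusted p = 0.532). Dnajc12 and Dnaja2 each lost the call without some of the mice. The adjusted p was then 0.0581 to 0.0693 for Dnajc12 and 0.0727 to 0.0876 for Dnaja2.

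The J-domain proteins of the ER gave a mixed picture. Dnajc3, also called P58IPK, an inhibitor of PERK that works with BiP, stood at 1.08, 0.72, 1.02, 0.097 and −0.24 in mice 1 to 5, far above 0 in 3 mice and near or below it in mice 4 and 5. It had the largest SD of the 86 genes (0.54 ± 0.58) and did not pass (adjusted p = 0.0607), although it passed without mouse 5. Dnajb9, or ERdj4, a target of the IRE1 arm, stood at 0.13, 0.011, −0.13, 0.029 and 0.21 in mice 1 to 5 and did not pass (adjusted p = 0.529). Dnajb11, or ERdj3, averaged −0.027 ± 0.17 and did not pass. Dnajc1, an ER membrane protein, passed at 0.27 ± 0.099.

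Of the protein disulfide isomerases, which form and shuffle disulfide bonds in the ER, all 4 measured genes passed above 0. Pdia3, or ERp57, which serves glycoproteins together with calnexin and calreticulin, stood at 1.62, 1.49, 1.34, 1.99 and 1.46 in mice 1 to 5. Its mean was 1.58 ± 0.25 (2.99-fold, adjusted p = 4.47e-05), and every mouse was far above 0. Pdia4, or ERp72, stood at 0.51, 0.73, 0.45, 0.31 and 0.27 in mice 1 to 5 (0.45 ± 0.18, adjusted p = 0.00285). Pdia5 stood at 0.56, 0.34, 0.34, 0.23 and 0.14 in mice 1 to 5 (0.32 ± 0.16, adjusted p = 0.00761). The pancreatic isomerase Pdia2 averaged 0.20 ± 0.10 and lost its call without mouse 1, 2 or 4 (adjusted p from 0.05001 to 0.0628).

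The lectin chaperones that hand glycoproteins to ERp57 did not pass. Calr, calreticulin, stood at −0.27, −0.25, 0.19, 0.49 and −0.12 in mice 1 to 5, below 0 in 3 mice and above it in 2, with a mean of 0.0072 ± 0.33 and a 95% interval from −0.27 to 0.29. Canx, calnexin, stood at 0.11, −0.12, −0.16, −0.12 and −0.19 in mice 1 to 5, above 0 in mouse 1 only (−0.096 ± 0.12, 95% interval from −0.24 to 0.044). Its 2 features averaged −0.41 ± 0.064, which passed when fitted singly, and 0.21 ± 0.26, which did not. Every mouse's value of Pdia3 lay above both intervals.

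Prolyl 4-hydroxylases place the hydroxyl groups that hold the collagen triple helix together. P4ha2, a catalytic subunit of the collagen enzyme, stood at 0.86, 0.71, 0.65, 0.84 and 0.76 in mice 1 to 5 (0.76 ± 0.086, adjusted p = 7.29e-05). P4htm, a transmembrane enzyme of the same family that acts on hypoxia-inducible factor, stood at 0.77, 0.44, 0.65, 0.58 and 0.60 in mice 1 to 5 (0.61 ± 0.12, adjusted p = 0.000291). Both lay above 0 in every mouse with little spread. The main catalytic subunit P4ha1 had values in 3 mice only, 0.65, 0.37 and 0.29 in mice 2, 4 and 5, and the common subunit P4hb had 0.10 and −0.11 in mice 1 and 5, so neither was tested.

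Among the genes grouped with ER-associated degradation, which pulls misfolded proteins out of the ER, 6 were measured and all passed, 5 above 0. Herpud1, an ER membrane protein that assembles the ubiquitin ligase complex and is strongly induced by ER stress, stood at 1.99, 1.44, 2.10, 2.12 and 2.00 in mice 1 to 5. Its mean was 1.93 ± 0.28 (3.81-fold, adjusted p = 3.03e-05), with mouse 2 below the others. Edem1, a mannosidase-like lectin that picks glycoproteins for degradation, stood at 0.53, 0.51, 0.47, 0.29 and 0.48 in mice 1 to 5 (0.45 ± 0.097, adjusted p = 0.000712). Its relative Edem2 averaged 0.26 ± 0.073. Herpud2, a relative of Herpud1, stood at 0.62, 0.27, 0.12, 0.39 and 0.18 in mice 1 to 5 (0.32 ± 0.20, adjusted p = 0.0149). Derl3, a derlin of secretory cells, averaged 0.20 ± 0.14 and Sel1l3, a relative of SEL1L by name, −0.23 ± 0.17. The calls of Derl3 and Sel1l3 were each lost without any of 4 mice, at adjusted p up to 0.119. Sel1l and Derl1, core parts of the degradation complex, had values in 2 mice each, from 0.23 to 0.26 for Sel1l and from −0.089 to −0.025 for Derl1, and were not tested.

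Known control elements were looked for in the promoters of these genes. Sequences came from RefSeq's GRCm38.p6 assembly, 300 bases around each annotated start, and 93 of the 112 symbols had an entry there, with 115 promoters. The ER stress element, CCAAT and CCACG with 9 bases of any kind between them, on either strand, occurred in 7 of the 115 promoters (6.09%) and in 0.119% of all 32851. It was found for Hspa5, Hsp90b1, Calr, Canx, Dnajc3, Derl3 and Pdia6. The 6 measured genes among them ranged from −0.096 to 0.79 with a median of 0.23, and 3 passed, all above 0. That share is near the 49.6% of all features tested that passed. A shorter form, element II, which is ATTGG, any base and CCACG and was added to the search after the values were seen, occurred in 2 of the 115 promoters, those of Herpud1 and Dnajb11, and in 0.0365% of all. Their means were 1.93 and −0.027. The CCACG core of both elements alone was in 60.0% of these promoters and 32.8% of all. The heat shock element, GAA, TTC and GAA with 2 bases of any kind between neighbours, on either strand, occurred in 6 of the 115 promoters (5.22%) and 0.603% of all, for Hsph1, Dnajb6, Hspd1 and Hspe1. Hsph1 and Dnajb6 each entered with 2 overlapping promoters that hold the same match, and Hspd1 and Hspe1 share a bidirectional promoter. The 6 promoters are thus not independent, and those of all genes were counted in the same way. Genes with this element ranged from −0.36 to 2.26. A match is a string of letters and does not show that a factor binds there.

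The sequences below show these elements in capitals, 5′ to 3′ on the gene's strand, first for ER proteins with a high ratio (Herpud1), middle ratios (Hsp90b1, Hspa5) and a ratio near 0 (Calr), as the 250 bases before the start site. Hsp90b1 holds 2 copies, the second on the opposite strand, as is the copy of Calr.
Herpud1, chr8:94386179-94386428, plus strand: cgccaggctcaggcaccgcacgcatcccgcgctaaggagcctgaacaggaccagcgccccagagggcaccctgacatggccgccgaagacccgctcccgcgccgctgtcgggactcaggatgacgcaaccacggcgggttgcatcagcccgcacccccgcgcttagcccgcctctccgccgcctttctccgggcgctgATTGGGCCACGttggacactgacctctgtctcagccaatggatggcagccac
Hsp90b1, chr10:86705445-86705694, minus strand: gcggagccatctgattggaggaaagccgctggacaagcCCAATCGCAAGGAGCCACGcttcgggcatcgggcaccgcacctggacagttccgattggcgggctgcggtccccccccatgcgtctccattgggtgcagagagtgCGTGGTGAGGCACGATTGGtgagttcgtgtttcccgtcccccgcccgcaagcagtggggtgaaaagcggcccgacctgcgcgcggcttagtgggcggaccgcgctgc
Hspa5, chr2:34771840-34772089, plus strand: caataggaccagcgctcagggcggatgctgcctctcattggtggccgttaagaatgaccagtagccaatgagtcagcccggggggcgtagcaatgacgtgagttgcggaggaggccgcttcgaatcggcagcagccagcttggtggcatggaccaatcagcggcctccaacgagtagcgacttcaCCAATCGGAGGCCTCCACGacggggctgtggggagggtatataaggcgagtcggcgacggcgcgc
Calr, chr8:84846932-84847181, minus strand: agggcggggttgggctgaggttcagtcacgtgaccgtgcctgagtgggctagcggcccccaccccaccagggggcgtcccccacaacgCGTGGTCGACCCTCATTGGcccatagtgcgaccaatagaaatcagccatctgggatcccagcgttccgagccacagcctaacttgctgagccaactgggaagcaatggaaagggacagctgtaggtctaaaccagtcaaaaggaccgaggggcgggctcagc
The heat shock element follows for Dnajb6 as 250 bases before its start, and for Hsph1 and Hspe1 as 30 bases around the match. In Hspe1, 2 overlapping matches lie 89 and 84 bases before the start site, and the match of Hsph1 lies 36 bases after it.
Dnajb6, chr5:29735648-29735897, plus strand: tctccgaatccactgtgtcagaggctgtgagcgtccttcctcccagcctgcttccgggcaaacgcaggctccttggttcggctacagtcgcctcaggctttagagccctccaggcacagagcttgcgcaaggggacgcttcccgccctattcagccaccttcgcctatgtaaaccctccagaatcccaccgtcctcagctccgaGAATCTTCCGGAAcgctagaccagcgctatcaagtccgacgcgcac
Hsph1, chr5:149636287-149636316, minus strand: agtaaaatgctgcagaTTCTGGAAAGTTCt
Hspe1, chr1:55088053-55088082, plus strand: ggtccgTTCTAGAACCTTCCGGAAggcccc
Dnajb6 and Hsph1, with this element, stood at 1.54 and 2.26, whereas Hspe1 stood at −0.36 and Hspd1, which shares its promoter, at 0.023.

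FK506-binding proteins and cyclophilins are prolyl isomerases, and some of them also serve HSP90. Of 10 measured FK506-binding proteins, 5 passed, a share near the 49.6% of all features tested, with 3 above 0 and 2 below. Fkbp5, or FKBP51, an HSP90 cochaperone induced by glucocorticoids, stood at 0.70, 0.75, 1.40, 1.36 and 0.89 in mice 1 to 5, with mice 3 and 4 the highest (1.02 ± 0.33, adjusted p = 0.000644). Its relative Fkbp4, or FKBP52, averaged 0.26 ± 0.25 and did not pass (adjusted p = 0.0595), but passed without mouse 4. Fkbp7, an ER isomerase, stood at 0.60, 0.90, 0.91, 0.82 and 0.79 in mice 1 to 5 (0.80 ± 0.12, adjusted p = 0.000104).

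Fkbp1a and Fkbp1b, small isomerases that bind and steady the ryanodine receptor, lay on opposite sides. Fkbp1b stood at −0.85, −0.77, −0.66, −0.78 and −0.68 in mice 1 to 5 (−0.75 ± 0.078, adjusted p = 7.16e-05), and Fkbp1a averaged 0.62 ± 0.18 (adjusted p = 0.000763). Neither gene had a mouse on the other side of 0. The mitochondrial Fkbp8 averaged −0.18 ± 0.098 and lost its call without mouse 2, 4 or 5 (adjusted p from 0.0649 to 0.0942). Fkbp2, an ER isomerase, stood at −0.37, 0.21, 0.49, 0.64 and 0.57 in mice 1 to 5, below 0 in mouse 1 alone, and passed only without that mouse. Fkbp9, Fkbp11 and Fkbpl averaged between −0.14 and −0.031 and did not pass.

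Of 7 cyclophilins, 5 passed, 3 above 0 and 2 below. Ppia, cyclophilin A, the abundant cytosolic isomerase and target of ciclosporin, was the only gene of the 86 past 2-fold below 0. It stood at −2.10, −1.05, −1.14, −1.35 and −1.90 in mice 1 to 5, with mice 1 and 5 the lowest (−1.51 ± 0.47, 2.84-fold, adjusted p = 0.000444). Ppia has many processed copies in the mouse genome, and whether its feature tells them apart is not given. With the pool treated as a control mouse it did not pass (adjusted p = 0.0852). Ppid, cyclophilin 40, another HSP90 partner, stood at 1.38, 0.55, 0.76, 0.39 and 0.82 in mice 1 to 5 (0.78 ± 0.38, adjusted p = 0.0031), above 0 in all mice. Ppie, a cyclophilin of the spliceosome, stood at 0.74, 0.56, 0.98, 0.28 and 0.22 in mice 1 to 5 (0.56 ± 0.32, adjusted p = 0.0069). Ppih, also of the spliceosome, averaged −0.21 ± 0.082. Its 2 features averaged −0.33 ± 0.053, which passed when fitted singly, and −0.043 ± 0.079, which did not (adjusted p = 0.584). Ppib, the ER cyclophilin that acts on procollagen, stood at −0.45, 0.34, 0.056, 0.35 and 0.062 in mice 1 to 5 and did not pass (0.074 ± 0.32, adjusted p = 0.626). Ppic passed at 0.44 ± 0.32, a call that was lost without mouse 2 or 4 (adjusted p = 0.0611 and 0.0523), and mitochondrial Ppif averaged −0.030 ± 0.051 over 4 mice.

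**Figure D4:**
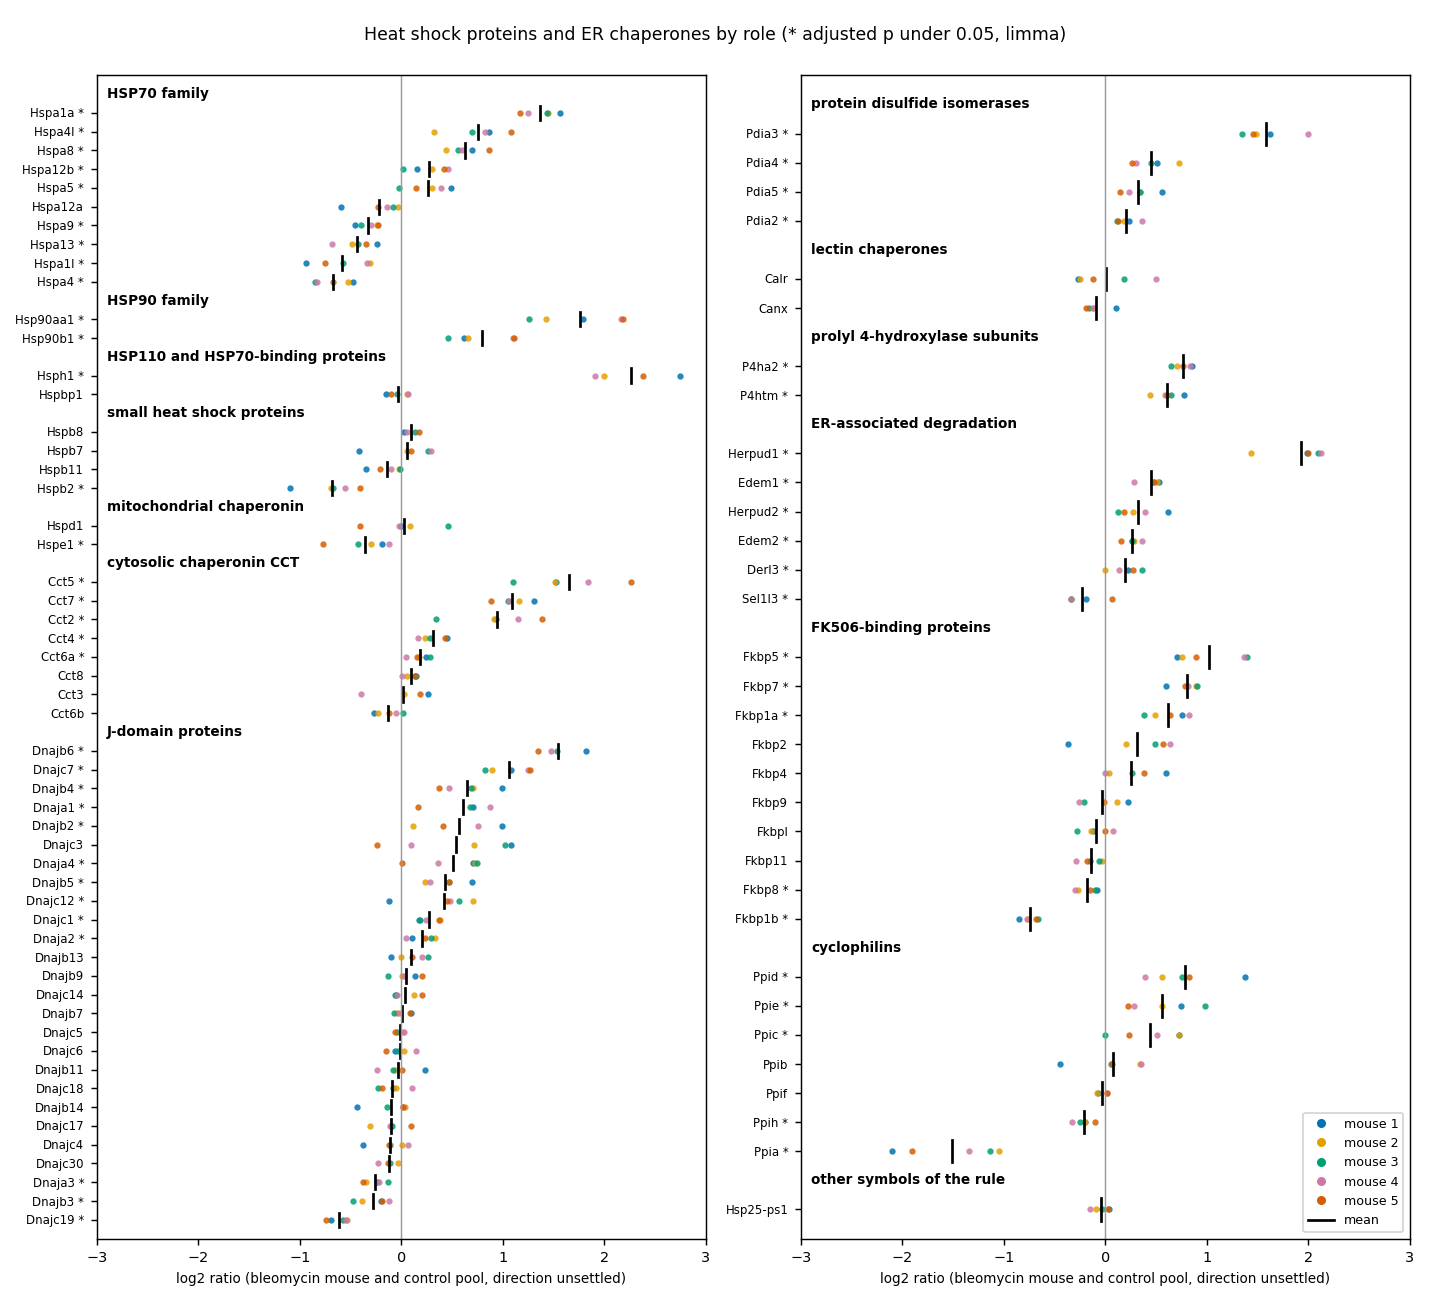
Log2 ratio (horizontal axes) of each of the 86 genes, grouped by role, with 1 coloured point per mouse and a black bar at the mean. An asterisk marks the 54 genes with an adjusted p under 0.05, and Hsph1 at 2.26 and Ppia at −1.51 are the extremes.

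Other genes of the same pathways were divided between the sides. In 6 lists of such genes, 77 of 117 measured passed, 37 above 0 and 40 below, where 49.6% of all features tested passed, 25.8% above 0 and 23.9% below. Their median was −0.023, against 0.14 for the 86 genes above. Of 15 sensors and regulators of the unfolded protein response, 7 passed on each side. Eif2ak3, the kinase PERK, stood at 1.19, 1.42, 1.15, 1.28 and 1.02 in mice 1 to 5 (1.21 ± 0.15, adjusted p = 3.38e-05), above 0 in every mouse. The other 2 sensors lay below 0 in every mouse, Ern1, which encodes IRE1, at −0.49 ± 0.16 (adjusted p = 0.00147) and Atf6 at −0.55 ± 0.14 (adjusted p = 0.000649). The ER-bound transcription factor Creb3l2 stood at 1.27, 1.39, −0.35, 1.98 and 1.45 in mice 1 to 5, high in 4 mice and below 0 in mouse 3 (1.15 ± 0.88, adjusted p = 0.0171). Chac1, a late target of ATF4 that degrades glutathione, averaged −0.83 ± 0.22, below 0 in every mouse.

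Of 40 other genes of ER folding and secretory entry, 11 passed on each side. The signal peptidase subunit Spcs3 averaged 1.25 ± 0.20, the disulfide isomerase Txndc5 1.23 ± 0.37 and the translocon-associated protein Ssr1 1.08 ± 0.22, all above 0. Of 13 further genes of ER-associated degradation 5 passed on each side, led by the peptide N-glycanase Ngly1 at 0.93 ± 0.22, Ubxn4 at 0.91 ± 0.43 and the ligase Syvn1, or HRD1, the partner of HERPUD1, at 0.61 ± 0.26. Of 13 genes of collagen modification, 6 passed below 0 and 2 above. Serpinh1, which encodes the collagen chaperone HSP47, averaged 0.99 ± 0.35, against the cross-linking enzymes Loxl1 and Lox at −0.83 ± 0.15 and −0.82 ± 0.39.

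Of 28 cytosolic cochaperones and heat shock factors, 9 passed above 0 and 7 below. Stip1, or HOP, which joins HSP70 to HSP90, stood at 0.74, 0.94, 0.67, 1.204 and 1.47 in mice 1 to 5 (1.00 ± 0.33, adjusted p = 0.000675). The tubulin cofactor Tbca and the prefoldin subunit Pfdn1 averaged −0.95 ± 0.23 and −0.94 ± 0.23. Of 8 mitochondrial partners, 3 passed above 0 and 4 below, including the mitochondrial HSP90 Trap1 at 0.73 ± 0.38, the protease Clpp at −0.58 ± 0.29 and the prohibitin Phb at −0.49 ± 0.48. Treating the pool as a control mouse left 5 of the 117, 4 above 0 and 1 below.

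**Figure D5:**
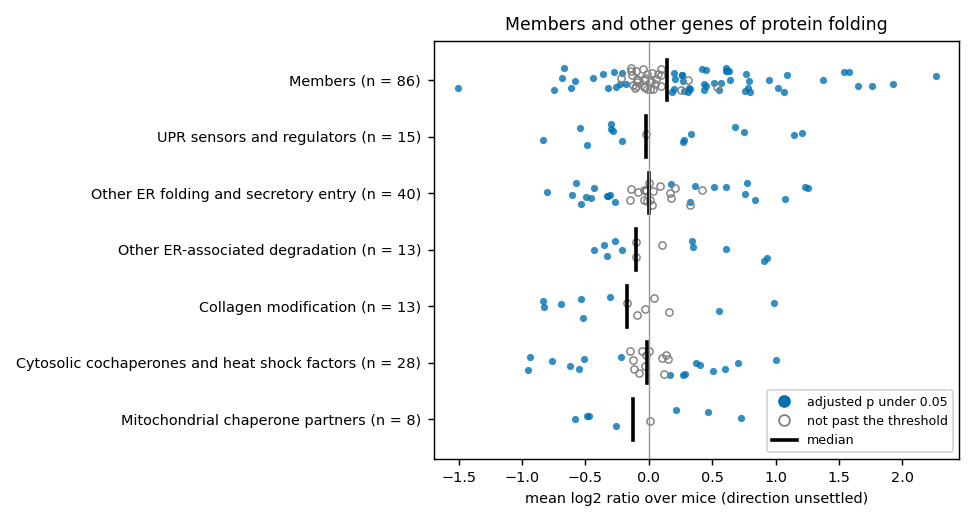
Mean log2 ratio over the mice (horizontal axis) of the 86 genes (top row) and of 6 lists of other protein folding genes, each point a gene, filled where the adjusted p was under 0.05, with a black bar at the median. The median of the top row is 0.14, and those of the lists lie between −0.17 and 0.0053.

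Markers of lung cell types lay on different sides of 0. Of all features tested 49.6% passed, 25.8% above 0 and 23.9% below. All 6 measured endothelial markers passed above 0 (list median 0.91), as did 5 of 6 club cell markers (0.90) and 4 of 7 alveolar type 1 markers (1.05). None passed below 0 in these 3 lists. Of 7 measured B and plasma cell markers 3 passed below 0 and none above, with list medians of −0.092, −0.57, −0.23, −0.11 and −0.18 in mice 1 to 5. Of 6 alveolar type 2 markers 3 passed above 0, with medians of 0.81, −0.044, 0.32, 0.70 and 0.75. Of 5 fibroblast markers 2 passed on each side, of 5 smooth muscle markers 1 passed above 0 and 2 below, and of 4 ciliated cell markers 1 passed on each side. Of 7 brown fat markers 3 passed above 0 and none below. For B and plasma cells, alveolar type 2, ciliated cells and brown fat, 42.9% to 50% of the markers passed. That is near the share of all features tested. Of 8 macrophage markers 7 passed below 0 and 1 above (list median −0.98), and of 9 markers of dividing cells 6 passed below 0 and 1 above, with medians from −1.03 in mouse 3 to −0.32 in mouse 5. The part of these cells in the ratios of the chaperones was not tested.

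Of the 112 symbols, 26 had too few values to be tested, and for 7 of them no array held a value. Those 7 were Dnajb1, Hspa1b, Dnajb8, Dnajc10, Dnajc22, Dnajc27 and Edem3. Dnajb1, the heat-inducible HSP40, and Hspa1b are among the defining heat shock genes. The landmark chaperones Hspb1 and Hsp90ab1 had no symbol in the annotation, so the small heat shock proteins and the HSP90 family were measured without them. Of the remaining 19, the ER isomerase Pdia6 had 0.091, 0.33 and 0.35 in mice 2, 3 and 4, and Hspb3, a small heat shock protein of muscle, had −0.25, −0.034 and −0.72 in mice 1, 4 and 5. The testis-rich Hspa2 had 0.525 and 0.30 in mice 1 and 2. The single measured symbol outside the roles above, Hsp25-ps1, averaged −0.044 ± 0.081 and did not pass.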

How the data were processed

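Per the labels, each array compared amplified lung RNA of 1 bleomycin-treated 129svJ mouse with pooled amplified RNA of control mice. The authors deposited a single log ratio for each feature of an array, which is read here as log2. The labels state no log base, direction, dyes, scanner or normalization. Arrays held 11350 to 12083 values for 17280 features, and their number limits the precision.

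Features on at least 4 of 5 arrays were kept, each array was centred on the median of all its values, and features of a symbol were averaged. Symbols came from the platform annotation, of which 14722 features had 1, 1 had several and 2557 had none. They were updated through gene identifiers, 14445 of which matched RefSeq (GRCm38.p6), and this changed no symbol described here. The mean of each gene was tested against 0 (two-sided) with limma 3.58.1 in R 4.3.3, and p-values were adjusted over all 10081 genes and features. The procedure was tested on simulated data. The 5 mice are separate animals per the labels, and an exact sign-flip test over them reaches no lower than p = 0.0625, which leaves the printed p-values dependent on limma's model.

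Genes named with values in every mouse were landmark chaperones, up to 3 farthest from 0 in each role and genes whose features passed on opposite sides. Dnajc3, Dnajc19, Fkbp2, Hspb7, Ern1, Atf6 and the untested Pdia6, Hspb3 and Hspa2 were singled out after their values were seen. Others have means only, and in each pathway list the 3 farthest from 0 that passed are named. The members and lists were chosen with earlier results of these data known. Protein sequences were not used here. Alternatives covered centring, the filter, averaging, array scaling, the test, the pool and leaving out each mouse.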

Additional observations from a re-analysis of the deposited data

Results flagged for a closer look

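Of the 86 genes, 3 had a mouse that stood apart from the other 4, with a gap above Dixon's 95% critical value for 5 samples. Chance gives such a gap in about 1 in 20 groups. Herpud1 was 1.44 in mouse 2, against 1.99 to 2.12 in the other mice, and Edem1 was 0.286 in mouse 4, against 0.47 to 0.53 in the others. Canx was 0.106 in mouse 1, against −0.19 to −0.12 in the others. Only 1 of its 2 features set mouse 1 apart, at 0.63 against 0.013 to 0.26 in the others. On the other feature mouse 1 stood at −0.42, within the −0.50 to −0.33 of the other mice.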

How the results depend on the processing

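The count of genes that passed, 54 of 86, was 42 to 55 under the settings that kept the same 86 genes, except 2. It was 50 of 77 with all 5 arrays required, and 57 once genes on 3 arrays entered, with no call among the 86 changed. With a difference of at least 1.2-fold required it was 27 (21 above 0 and 6 below), with 1847 of all features and 34 pathway genes. With the pool treated as a control mouse it was 12 (10 and 2), with 513 and 5. Leaving out each mouse gave 45 to 50, and 12 genes lost their call without at least 1 mouse. The median of 0.14 became 0.18 with features on all 5 arrays, 0.097 with at least 3 and 0.19 with 1 feature per symbol, and it was 0.12 to 0.17 with each mouse left out. Dnaja3 turned to 0.23 with 1 feature per symbol, because its features oppose each other. Canx was −0.41 in that setting and gained a call by limma (adjusted p = 0.000719). Genes near 0 changed side, namely Calr to −0.0035 with scaled arrays, and Dnajc5 to 0.0042 without centring. With mice left out, Calr ranged from −0.11 to 0.077, Cct3 from −0.065 to 0.16, Dnajb7 from −0.013 to 0.029, Hspd1 from −0.086 to 0.13, Dnajc14 from −0.0090 to 0.058, Dnajb11 from −0.093 to 0.026, Dnajc5 from −0.027 to 0.0043, Dnajc6 from −0.057 to 0.018 and Fkbp9 from −0.094 to 0.026. Centring on the kept features, chosen after seeing the data, changed no call among the 86 genes. The 9 genes measured in 4 mice gave no value with all 5 arrays required. With 1 feature per symbol or all 5 arrays required, Dnajb4 was 1.00, Dnaja2 0.38 and Ppih −0.33. No paired analysis was possible because the 5 arrays form 1 group. Signal over background is unknown, so low expression cannot be told from a small ratio.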
